A study of Rattus norvegicus with 64 samples.

Results

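Bladder wall that had been reconstructed with an unseeded graft was compared between 7 and 30 days of healing. Of the 64 arrays of the series, 16 were compared, chosen by their labels for graft and observation time. They were 8 arrays of bladders reconstructed using bladder acellular matrix (BAM) alone at 7 days (BAM_7d) and 8 at 30 days (BAM_30d). BAM is the wall of a rat bladder from which the cells were removed with detergent after the urothelium and submucosa had been scraped off. All recipients were male syngeneic Wistar rats, and all underwent hemicystectomy, the removal of part of the bladder, followed by augmentation with about 1 cm2 of graft. No cells were placed on these grafts, and the age of the recipients is not given in the sources used here. The reconstructed wall was separated from the native bladder before total RNA was isolated, so each array holds a mixture of all cells of the healed wall of 1 rat. Arrays of BAM seeded with adipose-derived stromal cells (ASCs, ADSCs in the labels) at the same days were set against these only in the last comparison. The statistical fit used all 64 arrays, so arrays outside the 16 also shaped the spread behind every standard error and adjusted p. No array of an unoperated bladder was used here, so the 2 days are compared with each other and not with healthy tissue.

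A wound of the bladder wall heals in overlapping phases. Neutrophils and then macrophages enter a provisional matrix, new vessels and fibroblasts form granulation tissue, and the tissue is then remodeled while collagen matures and muscle, nerve and vessel structures are rebuilt or lost. In the bladder, the urothelium grows over the graft from its margins and forms superficial umbrella cells, whose membrane is armored with uroplakins, and smooth muscle of the detrusor grows in from the native wall. Day 7 is usually placed in the inflammatory and proliferative part of this course and day 30 in its remodeling part.

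Signals are given as log2 of the processed intensity of a probe minus the 75th percentile of its array, so that a difference of 1 is a doubling, and 0 is the level below which most probes of the array lie. Levels of different genes come from different probes and are not set against each other. Between 73.3% and 79.8% of the gene spots were well above background on 15 of the 16 arrays. The exception was BAM_7d replicate 7 with 86.1%, which also had the lowest median Pearson r to the other arrays of its group (0.952, against 0.965 to 0.989 for the other 15 arrays, across 20951 probes that are not independent replicates). BAM_7d replicate 2 (0.965) was next, and for the genes given values here it was the array most often far from the others of its day, followed by BAM_30d replicate 7, so group counts are also given without these arrays where a count moved by over 1.5 times. BAM_7d replicate 8 was slightly closer to the arrays of 30 days (r = 0.975) than to those of its own group (0.974). The spread was wider at 7 days, with a median SD over probes of 0.316 against 0.202 at 30 days, and stayed at 0.283 without replicate 7. Each group was hybridized on a slide of its own, so slide and day cannot be told apart, while the slides of both days were scanned on the same date.

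Of 20951 probes that were well above background on all 8 arrays of at least 1 of the days, 2409 (11.5%) differed between 7 and 30 days, the criteria being a change of more than 1.5-fold and an adjusted p under 0.01. The signal was higher at 30 days in 1240 of them (5.92%) and lower in 1169 (5.58%). Of these, 199 rises and 153 falls passed the filter only through the day with the higher signal. Among the 19407 probes well above background on all 16 arrays, 2057 changed, 1041 upwards and 1016 downwards. Among the 11687 genes with a name and a probe above background, 1489 (12.7%) changed, 726 upwards (6.21%) and 763 downwards (6.53%), and these shares are the background for every gene group described here. The groups and their members were chosen with earlier results of these data known, so a share above this background is a description and not a test. The 16 arrays did not overlap between the days for 1007 of the 11687 genes (8.62%), of which 644 had changed. The median log2 change of all probes was -0.06. It was -0.24 after normexp background correction, under which 767 probes rose and 1170 fell, so the balance between rises and falls depends on the background correction. For 37 of the 155 changed genes given values here the change kept its direction but was over 1.5 times smaller after that correction. Without BAM_7d replicate 7 the changed probes numbered 2223, of which 1232 rose and 991 fell, and 2049 of them were among the 2409. Genes that every cell expresses were used as a check. None of 33 genes of the cytosolic ribosome passed the test, but 18 of them were saturated on all 16 arrays and can show no change. On at least 1 array 31 of them were saturated. Of 14 housekeeping genes only Tfrc, the transferrin receptor, passed it, with 4 of the 14 saturated on all 16 arrays and 6 on at least 1. The check therefore says little about the saturated genes.

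The largest rises included a metallothionein, a subunit of a sodium channel and a pair of aldehyde dehydrogenases (the plot of the 12 largest rises and falls). Mt3, a metallothionein, ranged from -4.68 to 0.87 (median 0.07) at 7 days and from 1.78 to 4.25 (median 3.37) at 30 days, a rise of 4.28 ± 0.84 (adjusted p = 9.83e-05) on the log2 scale, where the error is the standard error of the fit with 8 arrays per day. The days did not overlap, and BAM_7d replicates 2 and 7 were the lowest. Scnn1g, the gamma subunit of the epithelial sodium channel, lay between -5.17 and -0.48 (median -2.80) at 7 days and between -0.47 and 1.27 (median 0.90) at 30 days and rose by 3.48 ± 0.49 (adjusted p = 1.47e-07). Aldh1a1, which makes retinoic acid from retinaldehyde, lay between -5.59 and -0.83 (median -3.18) at 7 days and between -1.59 and 1.06 (median 0.15) at 30 days, and rose by 3.47 ± 0.48 (adjusted p = 1.12e-07). For this gene 1 array of each day overlapped, namely BAM_7d replicate 8 and BAM_30d replicate 2. Aldh3a1, an aldehyde dehydrogenase of surface epithelia, rose by 3.01 ± 0.31 (adjusted p = 8.04e-11) after a range of -4.29 to -2.05 (median -3.11) at 7 days and -1.11 to 1.28 (median -0.32) at 30 days. The days were fully separated for Aldh3a1, as they were for Scnn1g, Capn13, Cxcl13 and Slamf6.

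The largest falls included neutrophil, acute phase and matrix genes. Fbn2, which encodes fibrillin-2 of the microfibrils laid down in developing and healing tissue, ranged from 1.48 to 2.56 (median 1.91) at 7 days and from -2.79 to -2.30 (median -2.62) at 30 days. It fell by 4.60 ± 0.34 (adjusted p = 2.06e-15) or 24.2-fold, and the 8 arrays of each day formed a tight cluster with a wide gap between them. Tgm1, the transglutaminase that crosslinks the envelope of keratinizing epithelia, ranged from -2.25 to 0.41 (median -1.35) at 7 days and from -5.47 to -3.33 (median -5.26) at 30 days and fell by 3.74 ± 0.67 (adjusted p = 2.36e-05) with no overlap. Cyp11b1, an enzyme of glucocorticoid synthesis, lay between -1.38 and -0.13 (median -0.78) at 7 days and between -4.91 and -3.46 (median -4.03) at 30 days and fell by 3.20 ± 0.31 (adjusted p = 7.15e-12), again without overlap. Larger fitted falls were seen for S100a8 and S100a9, which were saturated on 1 array each and are given with the neutrophils. For 4 named falls the probe was not well above background on any array at 30 days, so that only a lower bound can be given, set by the dimmest signal well above background on each array. Mmp8, the collagenase of neutrophils, was at least 17.3-fold lower at 30 days, Fetub at least 14.7-fold, Prok2, a chemotactic prokineticin of neutrophils and macrophages, at least 12.5-fold and Hal, the histidine ammonia lyase, at least 8.62-fold, with an adjusted p of at most 1.47e-07 in the fit. No such bound could be given for a rise. The bounds of these 4 falls hold only for the processing used here. After normexp correction the log2 changes were smaller, -2.06 for Mmp8, -1.74 for Fetub, -1.69 for Prok2 and -1.17 for Hal.

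**Figure D1:**
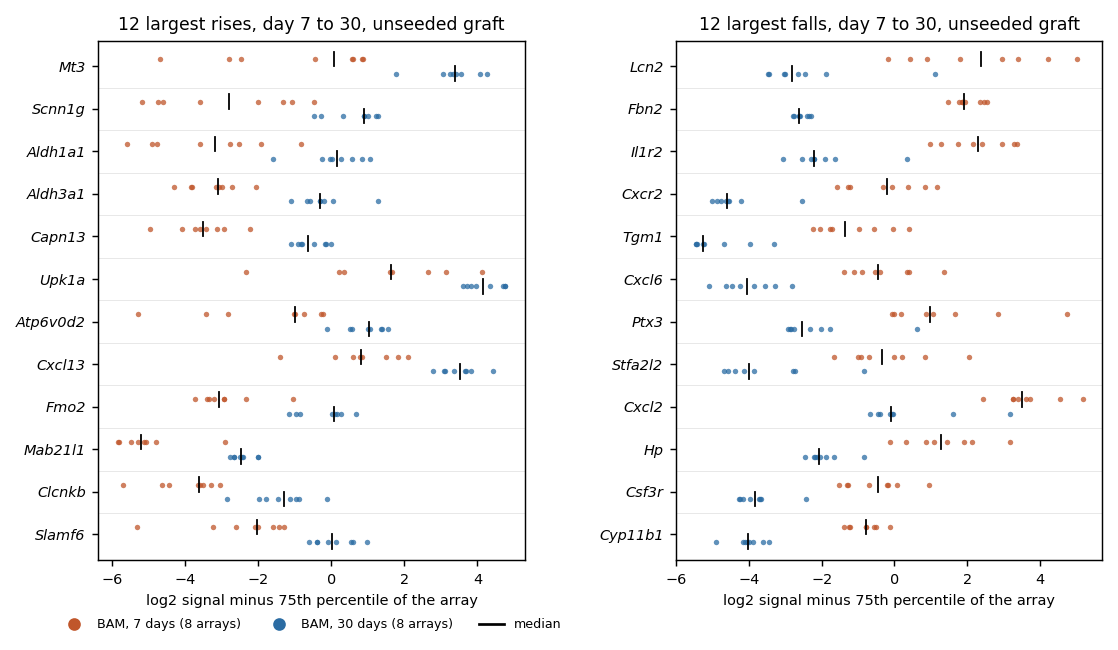
Signal (log2 minus the 75th percentile of the array, horizontal axis) on each of the 16 arrays for the 12 genes with the largest rise (left) and the 12 with the largest fall (right) among the changed genes that were well above background and unsaturated on all 16 arrays. Orange points are 7 days, blue points 30 days and black bars the median of 8 arrays; Fbn2 falls from a median of 1.91 to -2.62 with no overlap, while Mt3 at 7 days spreads from -4.68 to 0.87.

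The gene groups moved in different directions (the plot of groups by share of changed genes). The mean signal was higher at 30 days in 20 of 22 genes of basal and intermediate urothelium, 19 of 21 of contractile smooth muscle and 16 of 21 of the BMP group. It was lower in 14 of 17 neutrophil genes, 25 of 28 endothelial, 8 of 9 basement membrane, 18 of 22 protease and 21 of 26 cytokine genes. Other groups were mixed, such as the growth factors with 17 higher and 15 lower. Over all named genes the median log2 change was -0.06. Among 24 macrophage genes above background none passed the test, nor did any of 10 red blood cell genes.

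**Figure D2:**
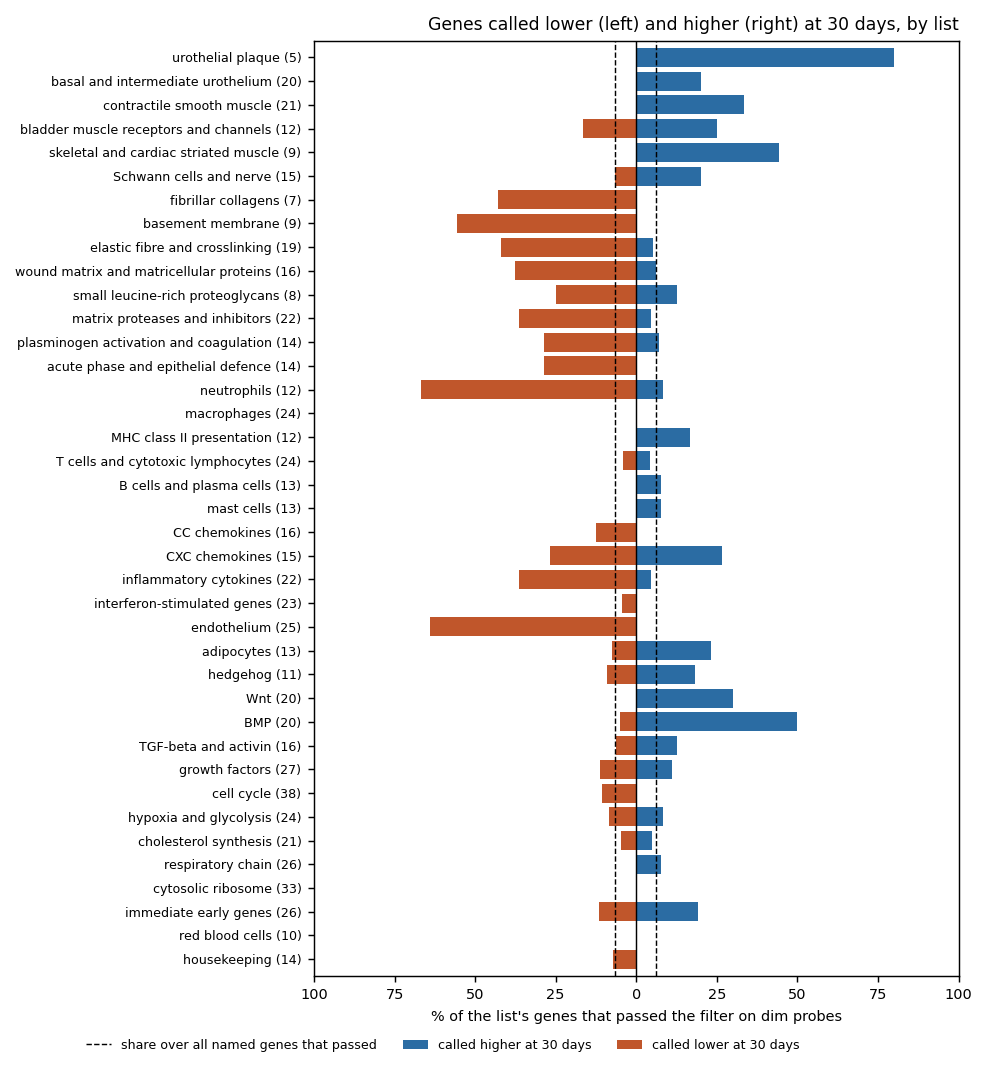
Percent of the genes of each group that were called higher (blue, to the right) or lower (orange, to the left) at 30 days, over the genes of the group that passed the filter on dim probes (their number in parentheses). Dashed lines mark the share over all named genes that passed, 6.21% higher and 6.53% lower; urothelial plaque genes reach 80% higher and neutrophil and endothelial genes 66.7% and 64% lower.

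The urothelial plaque was the group with the largest median change, 2.05 on the log2 scale against -0.06 over all named genes. All 5 genes of this group on the array were above background and had a higher mean at 30 days, and 4 of them rose. Upk1a, a tetraspan uroplakin of the umbrella cell membrane, ranged from -2.35 to 4.13 (median 1.65) at 7 days and from 3.60 to 4.76 (median 4.15) at 30 days, a rise of 2.78 ± 0.45 (adjusted p = 3.18e-06). Its partner Upk2 ranged from -6.45 to 1.12 (median -1.61) at 7 days and from 0.84 to 2.77 (median 1.83) at 30 days and rose by 3.95 ± 0.58 (adjusted p = 4.36e-07) or 15.5-fold. Upk3a, the uroplakin with a cytoplasmic tail, ranged from -1.94 to 5.44 (median 3.33) at 7 days and from 4.30 to 5.66 (median 5.02) at 30 days and rose by 2.05 ± 0.47 (adjusted p = 8.58e-04). Upk1b, the tetraspan that pairs with Upk3a, rose by 1.57 ± 0.35 (adjusted p = 4.95e-04) after a range of 0.29 to 4.70 (median 3.25) at 7 days and 3.96 to 5.16 (median 4.56) at 30 days. In each of these 4 genes BAM_7d replicate 7 was the lowest and BAM_7d replicates 4 and 8 the highest of their day, and replicate 8 reached the range of 30 days every time. The mean level of the group spread from -2.52 to 2.39 among the rats at 7 days and only from 1.79 to 3.27 at 30 days. Without replicate 7, 5 of 5 genes rose, Upk3a by 1.35. The calls of Upk3a and Upk1b were each lost in 1 of 27 alternative analyses, those of Upk1a and Upk2 in none. Because whole bladder wall was measured, more cells of a type and more RNA per cell cannot be told apart here or in any other group.

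Of 22 genes of basal and intermediate urothelium on the array, 20 passed the filter, 4 rose and none fell, with a median change of 1.05. Cldn4, a claudin of the tight junction, ranged from -3.15 to 2.93 (median 0.70) at 7 days and from 2.06 to 4.20 (median 3.09) at 30 days and rose by 2.35 ± 0.48 (adjusted p = 1.48e-04). Krt18, a keratin of simple and superficial epithelium, ranged from -1.83 to 4.50 (median 2.66) at 7 days and from 3.34 to 4.91 (median 4.43) at 30 days and rose by 1.97 ± 0.46 (adjusted p = 9.28e-04). Epcam rose by 1.87 ± 0.49 (adjusted p = 0.0038) and Gata3, a transcription factor of urothelial identity, by 1.79 ± 0.34 (adjusted p = 6.94e-05). Without BAM_7d replicate 7 the change of Epcam was 1.21 (adjusted p = 0.0211). The call of Epcam was lost in 3 of 27 alternative analyses, and those of Cldn4, Krt18 and Gata3 in 1 each. The basal cell genes Krt5 and Tp63 did not pass the test on their brightest probes. Krt5 ranged from -2.90 to 1.17 (median 0.35) at 7 days and from -1.21 to 2.04 (median 0.97) at 30 days, a change of 0.90 ± 0.56 (adjusted p = 0.295), and Tp63, the transcription factor of basal cells, changed by 0.24 ± 0.12 (adjusted p = 0.154). The other probe of Tp63, which had a lower signal, rose by 1.68. Krt14 and Krt17, keratins of basal and stressed epithelium, had negative changes of -1.56 and -1.5 with adjusted p-values above the threshold. Without BAM_7d replicate 7 the median of this group was 0.52 and 3 genes rose, and with the probes of a gene averaged 7 genes rose.

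The mean level of contractile smooth muscle genes had a median over rats of 0.93 at 7 days and 1.74 at 30 days. All 21 genes on the array passed the filter, 7 rose, none fell, and the median change was 0.76. Myh11, the smooth muscle myosin heavy chain, ranged from 0.78 to 4.54 (median 3.13) at 7 days and from 4.45 to 5.20 (median 4.70) at 30 days and rose by 1.85 ± 0.30 (adjusted p = 3.62e-06). Synm, the intermediate filament protein synemin, ranged from -1.23 to 3.24 (median 1.12) at 7 days and from 3.03 to 4.15 (median 3.62) at 30 days, a rise of 2.46 ± 0.38 (adjusted p = 1.48e-06) or 5.5-fold. Mylk, the kinase that switches on smooth muscle myosin, ranged from 1.46 to 4.07 (median 2.84) at 7 days and from 3.71 to 4.49 (median 4.10) at 30 days and rose by 1.29 ± 0.26 (adjusted p = 1.49e-04). Myocd, the myocardin coactivator of smooth muscle genes, rose by 1.22 ± 0.31 (adjusted p = 0.00232) from a range of -4.26 to -2.59 (median -3.84) to one of -2.87 to -2.13 (median -2.38). At 7 days replicates 2 and 8 were the highest for all 4 of these genes and replicate 8 overlapped with 30 days in each, while replicate 7 was the lowest for Myh11, Synm and Mylk. Hspb6 and Lmod1, both of the contractile apparatus, rose by 1.65 ± 0.39 (adjusted p = 0.00113) and 1.43 ± 0.33 (adjusted p = 9.38e-04), and Mustn1 rose by 0.91. After normexp correction Myocd and Lmod1 changed by 0.58 and 0.87, and both calls were lost. Acta2, the smooth muscle actin that myofibroblasts also make, ranged from 0.66 to 2.29 (median 1.14) at 7 days and from 1.67 to 2.40 (median 1.96) at 30 days, a change of 0.66 ± 0.25 (adjusted p = 0.0565) that missed the threshold. Des, the desmin of mature muscle, changed by 0.61 ± 0.33 (adjusted p = 0.216). Without replicate 7, 7 genes rose with a median change of 0.55, and without replicate 2, 10 genes rose.

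Receptors and channels of the bladder muscle did not move together. Of 14 on the array 12 passed the filter, 3 rose and 2 fell, and the median change was -0.11. P2rx1, the channel opened by ATP from parasympathetic nerves, ranged from -7.62 to -1.31 (median -3.31) at 7 days and from -1.71 to -0.53 (median -1.09) at 30 days and rose by 2.55 ± 0.56 (adjusted p = 4.87e-04). Chrm3, the muscarinic receptor through which acetylcholine contracts the detrusor, ranged from -4.15 to -1.26 (median -2.77) at 7 days and from -1.88 to -1.03 (median -1.49) at 30 days and rose by 1.23 ± 0.34 (adjusted p = 0.00535), a call lost in 10 of 27 alternatives. The relaxing receptor Adrb3 rose by 1.5 ± 0.44 (adjusted p = 0.00901), which was lost in 15 of 27. Kcnj8, the pore of the ATP-sensitive potassium channel of pericytes and smooth muscle, ranged from 1.80 to 3.25 (median 2.08) at 7 days and from 0.96 to 1.30 (median 1.06) at 30 days and fell by 1.13 ± 0.19 (adjusted p = 4.55e-06), with no overlap. Ednrb, an endothelin receptor, fell by 0.97 ± 0.25 (adjusted p = 0.00323), also with no overlap between the days. Chrm2, the most abundant muscarinic receptor of the bladder, had a change of 0.14. After normexp correction 1 gene of this group rose and 2 fell, and without BAM_7d replicate 2, 2 rose and 1 fell.

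Nerve and Schwann cell genes gave a mixed picture, with 3 rises and 1 fall among 15 of 17 genes above background. Uchl1, a deubiquitinase abundant in neurons, ranged from 0.62 to 5.01 (median 2.95) at 7 days and from 4.20 to 5.56 (median 5.13) at 30 days, a rise of 2.17 ± 0.34 (adjusted p = 2.04e-06), with 1 array of 30 days saturated. Nefm, the medium neurofilament of axons, was above background on 5 of 8 arrays at 7 days and all 8 at 30 days, and rose by 2.09 ± 0.51 (adjusted p = 0.00165). Pmp22, a protein of compact myelin that fibroblasts also make, rose by 0.84 ± 0.19 (adjusted p = 8.51e-04). Ncam1, the neural cell adhesion molecule, ranged from -1.38 to 1.56 (median 1.02) at 7 days and from -1.09 to -0.20 (median -0.65) at 30 days and fell by 1.37 ± 0.26 (adjusted p = 4.39e-05), with BAM_7d replicate 2 alone below every array of 30 days. S100b, a calcium-binding protein of Schwann cells, changed by 0.83 ± 0.42 (adjusted p = 0.176). The median of the group, 0.31, was -0.06 after normexp correction, under which Nefm changed by 0.76 and lost its call. In striated muscle genes, 9 of 13 were above background and 4 rose: Ckm by 1.94 ± 0.41 (adjusted p = 2.93e-04), Atp2a1 by 1.77 ± 0.39 (adjusted p = 4.98e-04), Tnni2 by 1.15 ± 0.26 (adjusted p = 7.52e-04) and Tnnc2 by 1.77 ± 0.51 (adjusted p = 0.0077), the last lost in 9 of 27 alternatives. The striated myosin Myh4 was above background on 2 arrays of 7 days and none of 30 days, and the actin Acta1 changed by -0.16 ± 0.36 (adjusted p = 0.837). The median change of the striated muscle group was -0.006, with a higher mean at 30 days in 6 of the 13 genes and a lower one in 7.

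Neutrophil genes had the lowest median change of the 39 groups, -1.52 over the 17 on the array. Of the 12 that passed the filter, 8 fell, 6 of them with no overlap between the days, and 1 rose. S100a8 and S100a9, the subunits of calprotectin, are the most abundant proteins of the neutrophil cytosol. S100a8 ranged from 2.42 to 5.38 (median 4.08) at 7 days and from -2.57 to 0.73 (median -1.93) at 30 days and fell by 5.62 ± 0.81 (adjusted p = 2.56e-07), and S100a9 ranged from 2.92 to 5.76 (median 4.27) at 7 days and from -1.96 to 1.33 (median -1.72) at 30 days and fell by 5.52 ± 0.78 (adjusted p = 1.92e-07), with 1 array of 7 days saturated for each. Cxcr2, the receptor that draws neutrophils towards CXC chemokines, ranged from -1.59 to 1.17 (median -0.20) at 7 days and from -5.01 to -2.55 (median -4.61) at 30 days and fell by 4.14 ± 0.45 (adjusted p = 2.36e-10) or 17.7-fold. Csf3r, the receptor for G-CSF, ranged from -1.52 to 0.95 (median -0.45) at 7 days and from -4.29 to -2.44 (median -3.85) at 30 days and fell by 3.26 ± 0.36 (adjusted p = 6.32e-10). Mcemp1, Camp and Padi4 fell by between 1.42 and 4.53. The 30-day arrays were not alike, since BAM_30d replicate 7 was the highest of its day for S100a8, S100a9, Cxcr2 and Csf3r, and its group level of -3.09 stood above the -4.74 to -4.14 of the other 7 rats. Ltf, the lactoferrin of neutrophil granules and of glandular epithelium, went the other way and rose by 1.62 ± 0.39 (adjusted p = 0.00148), although it was above background on 3 of 8 arrays at 7 days and changed by 0.14 after normexp correction. The granule protease gene Elane was not above background on any array at 30 days.

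The acute phase and epithelial defense genes had a median change of -0.82, with 4 of 14 genes above background lower and none higher. Lcn2, the siderophore-binding lipocalin of neutrophils and inflamed epithelium, ranged from -0.19 to 5.03 (median 2.39) at 7 days and from -3.47 to 1.11 (median -2.83) at 30 days and fell by 4.68 ± 0.77 (adjusted p = 4.45e-06) or 25.6-fold. The days overlapped because BAM_30d replicate 7 stood at 1.11. Hp, haptoglobin, which binds free hemoglobin, ranged from -0.13 to 3.17 (median 1.28) at 7 days and from -2.46 to -0.85 (median -2.09) at 30 days and fell by 3.28 ± 0.50 (adjusted p = 1.08e-06) with no overlap. Ptx3, a pentraxin that marks microbes and matrix, ranged from -0.07 to 4.74 (median 0.96) at 7 days and from -2.94 to 0.61 (median -2.54) at 30 days and fell by 3.53 ± 0.49 (adjusted p = 1.38e-07), and here BAM_30d replicate 1 was the highest of its day. Nos2, the inducible nitric oxide synthase, fell by 1.88 ± 0.37 (adjusted p = 1.09e-04). C3, the central complement component, ranged from 2.40 to 4.42 (median 3.38) at 7 days and from 1.89 to 4.30 (median 2.21) at 30 days, a change of -0.52 ± 0.68 (adjusted p = 0.692).

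Inflammatory cytokines and their receptors followed the same direction, with 8 falls and 1 rise among 22 of 26 genes above background and a median change of -1.06. Il1r2, the decoy receptor that captures interleukin-1, ranged from 0.97 to 3.37 (median 2.29) at 7 days and from -3.08 to 0.36 (median -2.21) at 30 days and fell by 4.22 ± 0.42 (adjusted p = 2.86e-11) or 18.6-fold, with no overlap. Il1b ranged from 2.47 to 5.19 (median 3.77) at 7 days and from 0.78 to 4.05 (median 1.05) at 30 days and fell by 2.23 ± 0.55 (adjusted p = 0.00179). Of the 30-day arrays BAM_30d replicate 7 was the highest for Il1b and for Il1r2. Osm, oncostatin M of activated myeloid cells, ranged from -2.76 to -1.39 (median -2.33) at 7 days and from -3.49 to -3.08 (median -3.23) at 30 days and fell by 1.06 ± 0.24 (adjusted p = 5.48e-04) with no overlap. Il6 fell by 1.81 ± 0.50 (adjusted p = 0.00571) and was above background on 3 of 8 arrays at 30 days, and this call was lost in 10 of 27 alternatives. Il4r, Tnfaip6, Il23a and Ptgs2, the inducible cyclooxygenase, fell by between 1.08 and 1.70. Tnf ranged from 0.62 to 2.32 (median 1.28) at 7 days and from 0.19 to 1.88 (median 1.04) at 30 days, a change of -0.27 ± 0.52 (adjusted p = 0.806). Csf1, the growth factor of macrophages, ranged from -0.07 to 0.78 (median 0.33) at 7 days and from 0.61 to 2.56 (median 1.75) at 30 days and rose by 1.36 ± 0.26 (adjusted p = 6.45e-05). Without BAM_7d replicate 7, 4 genes of this group fell and 1 rose, and that array had the highest mean level of the group at 7 days, -0.48, followed by replicate 2. Without BAM_7d replicate 2 or BAM_30d replicate 7, 6 fell.

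The CXC chemokine group, which also holds the fractalkine Cx3cl1 and the receptors Cxcr4 and Ackr3, split into genes that fell and genes that rose. Of 16 genes on the array 15 were above background, 4 fell, 4 rose and the median change was -0.07. Those that fell are ligands of Cxcr2. Cxcl6 ranged from -1.38 to 1.37 (median -0.46) at 7 days and from -5.11 to -2.83 (median -4.07) at 30 days and fell by 3.73 ± 0.48 (adjusted p = 2.26e-08). Cxcl2 ranged from 2.44 to 5.19 (median 3.51) at 7 days and from -0.67 to 3.18 (median -0.10) at 30 days and fell by 3.30 ± 0.66 (adjusted p = 1.32e-04). Cxcl1 ranged from 0.67 to 4.33 (median 1.1) at 7 days and from -2.03 to 1.07 (median -1.01) at 30 days and fell by 2.50 ± 0.61 (adjusted p = 0.00173). Overlap between the days was absent for Cxcl6 and came from 1 array of 30 days each for Cxcl2 and Cxcl1, BAM_30d replicate 7 and replicate 1. Ppbp, a platelet chemokine that is also a Cxcr2 ligand, fell by 1.37 ± 0.31 (adjusted p = 6.72e-04) and was above background on 1 of 8 arrays at 30 days. Its change was -0.59 after normexp correction, and the call was lost. Of the genes that rose, Cxcl13 and Cxcl14 are CXC chemokines. Cxcl13, which draws B cells into lymphoid tissue, ranged from -1.42 to 2.09 (median 0.82) at 7 days and from 2.79 to 4.44 (median 3.51) at 30 days and rose by 2.70 ± 0.66 (adjusted p = 0.00163). Cxcl14, a chemokine of resting epithelium and stroma, ranged from 0.72 to 3.37 (median 2.00) at 7 days and from 4.08 to 4.96 (median 4.35) at 30 days and rose by 2.53 ± 0.28 (adjusted p = 2.80e-10) or 5.79-fold, again with no overlap. Ackr3, a scavenging receptor for Cxcl12, and Cx3cl1, which is membrane-bound, rose by 1.23 ± 0.23 (adjusted p = 4.77e-05) and 1.01 ± 0.28 (adjusted p = 0.00542), the latter lost in 8 of 27 alternatives. Cxcl12 itself changed by -0.10 ± 0.25 (adjusted p = 0.848).

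The promoters of the 3 inducible ligands that fell are shown because all of them carry a match to the κB consensus motif, bound by NF-κB, just upstream of the start. Each line gives 120 bases before the transcription start, 5′ to 3′ on the strand of the gene, from RefSeq (rat assembly GRCr8), with the motif in capitals.
Cxcl1: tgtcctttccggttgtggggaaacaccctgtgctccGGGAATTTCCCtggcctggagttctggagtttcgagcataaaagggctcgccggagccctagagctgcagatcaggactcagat
Cxcl2: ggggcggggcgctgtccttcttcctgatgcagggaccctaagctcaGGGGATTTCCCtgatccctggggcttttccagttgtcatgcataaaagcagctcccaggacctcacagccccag
Cxcl6: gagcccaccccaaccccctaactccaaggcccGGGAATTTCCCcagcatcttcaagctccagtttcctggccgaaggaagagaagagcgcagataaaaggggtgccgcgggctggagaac
All 3 lie on the minus strand of chromosome 14, at chr14:17479322-17479441 for Cxcl1, chr14:17467256-17467375 for Cxcl2 and chr14:17596418-17596537 for Cxcl6. The first base of the match lies 84, 74 and 88 bases before the start, respectively. The motif was sought on both strands of the 250 bases before the start, where overlapping matches were counted as 1 promoter, and 2117 of 33469 RefSeq promoters (6.33%) held it. Among 15 genes of the group with a promoter there, 5 held it. These were the 3 shown and Cxcl10 and Cxcl11, which did not pass the test (0.41 and -0.62), and none of Cxcl13, Cxcl14, Ackr3, Cx3cl1 and Ppbp did. A match is a description of the letters in this window, and binding was not measured here.

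No gene of the macrophage group passed the test between 7 and 30 days. None of 24 above background was called in either direction, and 12 of the 26 on the array had a higher and 14 a lower mean at 30 days, with a median change of -0.04. Cd68, a lysosomal glycoprotein of phagocytes, ranged from 2.69 to 4.73 (median 4.35) at 7 days and from 4.27 to 5.31 (median 5.15) at 30 days, a change of 0.80 ± 0.46 (adjusted p = 0.255). Adgre1, the F4/80 antigen, ranged from -0.36 to 2.61 (median 1.79) at 7 days and from 0.68 to 2.43 (median 1.21) at 30 days, a change of -0.29 ± 0.41 (adjusted p = 0.724). Csf1r, the receptor for Csf1, changed by 0.04 ± 0.28 (adjusted p = 0.956). Of the group, Lyz2 and Apoe were saturated on all 16 arrays. After normexp correction 1 gene of the group fell, and without BAM_7d replicate 2, Lyve1 of resident macrophages and lymphatic vessels rose by 1.15 (adjusted p = 0.0052).

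Genes of antigen presentation and of lymphocytes changed singly. Of 12 MHC class II presentation genes above background 2 rose, both of activated antigen-presenting cells. Cd83 ranged from -1.28 to 1.30 (median 0.84) at 7 days and from 1.47 to 2.98 (median 2.34) at 30 days and rose by 1.67 ± 0.38 (adjusted p = 7.30e-04) with no overlap, and Cd86, a ligand of CD28, rose by 0.87 ± 0.22 (adjusted p = 0.00225). The class II molecule RT1-Da and the invariant chain Cd74 changed by -0.45 ± 0.34 (adjusted p = 0.418) and 0.15 ± 0.28 (adjusted p = 0.798). Among 24 T cell genes above background, Cd8a, the coreceptor of cytotoxic T cells, ranged from -1.51 to 0.23 (median -0.31) at 7 days and from -3.82 to -0.28 (median -2.06) at 30 days and fell by 1.76 ± 0.42 (adjusted p = 0.00122), while Cd4, which rat macrophages also carry, ranged from -3.54 to -1.66 (median -2.05) at 7 days and from -1.63 to -0.79 (median -1.1) at 30 days and rose by 1.03 ± 0.29 (adjusted p = 0.00636), a call lost in 7 of 27 alternatives, among them the omission of BAM_7d replicate 2. Cd3e of the T cell receptor complex changed by -0.17 ± 0.47 (adjusted p = 0.869). Of 13 B cell and plasma cell genes above background only Irf4, a transcription factor of plasma cells and activated lymphocytes, rose, by 1.85 ± 0.46 (adjusted p = 0.00215), and it did not without BAM_7d replicate 2 or BAM_30d replicate 7. After normexp correction Cd86 and Irf4 changed by 0.41 and 0.40, and both calls were lost. Slamf6, a receptor of T, B and natural killer cells outside these groups, ranged from -5.32 to -1.30 (median -2.05) at 7 days and from -0.60 to 0.99 (median 0.02) at 30 days and rose by 2.55 ± 0.60 (adjusted p = 0.00108). Of 13 mast cell genes above background Gata2 rose by 0.86 ± 0.20 (adjusted p = 9.12e-04), and Cpa3, the carboxypeptidase that defines mast cells, changed by -0.35 ± 0.36 (adjusted p = 0.586). In the CC chemokines 2 of 16 fell, Ccl6 by 1.33 ± 0.33 (adjusted p = 0.00176) and Ccl20, which draws Th17 cells, by 2.09 ± 0.61 (adjusted p = 0.0092), the latter lost in 13 of 27 alternatives. Ccl6 alone fell without each of BAM_7d replicates 7 and 2 and BAM_30d replicate 7, and Ccl11, chosen after its value was seen, rose by 1.25 without BAM_7d replicate 2 (adjusted p = 0.00262). Ccl2, the main attractant of monocytes, changed by 0.20 ± 0.45 (adjusted p = 0.835). Of 23 interferon-stimulated genes above background only Ifit3 fell, by 2.41 ± 0.67 (adjusted p = 0.00585), a call lost in 10 of 27 alternatives, among them quantile normalization and the omission of BAM_7d replicate 7.

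**Figure D3:**
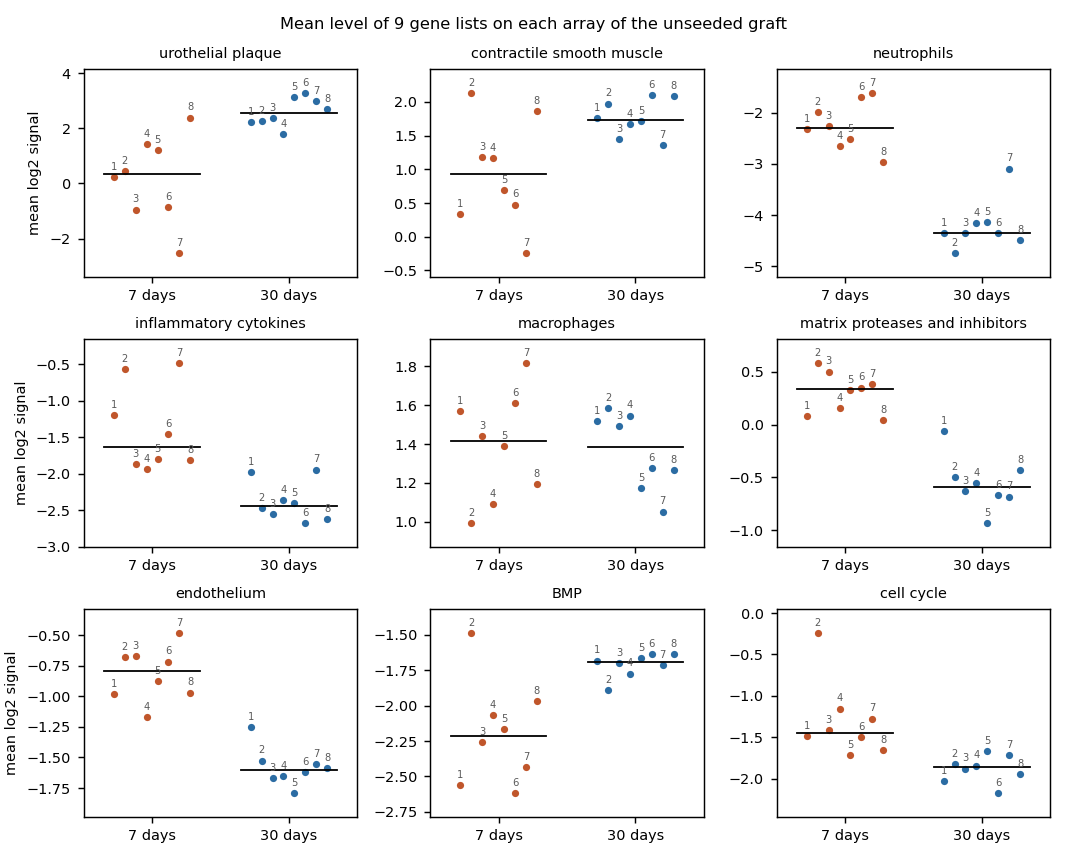
Mean log2 signal of 9 gene groups on each array (vertical axis, each panel with its own scale), with the replicate number beside each point and a bar at the median of 8 arrays. Neutrophil, endothelial and protease genes separate the days, macrophage genes do not, and BAM_7d replicate 7 has the lowest urothelial plaque (-2.52) and contractile smooth muscle (-0.24) level of all 16 arrays.

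The brightest probes of the main collagen genes, Col1a1, Col1a2 and Col3a1, were saturated on all 16 arrays, so no change can be given from them. Of the other 4 fibrillar collagen genes 3 fell. With the probes of a gene averaged, 4 genes of the group fell and the median change was -0.62. Col11a1, a minor collagen that nucleates fibrils, ranged from -3.25 to 1.17 (median 0.40) at 7 days and from -2.45 to -1.86 (median -2.21) at 30 days and fell by 2.20 ± 0.39 (adjusted p = 1.94e-05). BAM_7d replicate 2, at -3.25, was lower than every array of 30 days. Col5a1, which limits fibril diameter, ranged from 1.68 to 3.10 (median 2.33) at 7 days and from 0.69 to 1.43 (median 1.17) at 30 days and fell by 1.28 ± 0.17 (adjusted p = 2.87e-08) with no overlap, and Col5a3 fell by 0.93 ± 0.24 (adjusted p = 0.00246).

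Of 9 basement membrane genes 5 fell and none rose, with a median change of -0.63. Col18a1, the collagen that holds endostatin, ranged from 2.81 to 3.44 (median 2.90) at 7 days and from 0.67 to 1.1 (median 0.88) at 30 days and fell by 2.11 ± 0.23 (adjusted p = 2.36e-10) or 4.32-fold. Col4a1, the main chain of its collagen network, ranged from 4.17 to 4.95 (median 4.60) at 7 days and from 2.61 to 3.04 (median 2.78) at 30 days and fell by 1.75 ± 0.19 (adjusted p = 1.45e-10) or 3.37-fold. Both were without overlap. Nid2, Lama5 and Lamc1, the nidogen and laminin chains of the membrane, fell by 0.76, 0.63 and 0.60, with the call of Lamc1 lost in 9 of 27 alternatives. Without BAM_7d replicate 2, 3 genes of the group fell.

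In elastic fiber and crosslinking genes 8 of 19 fell and 1 rose, with a median change of -0.53. Serpinh1, the collagen chaperone HSP47, ranged from 3.92 to 4.84 (median 4.33) at 7 days and from 2.95 to 3.42 (median 3.30) at 30 days and fell by 1.11 ± 0.17 (adjusted p = 8.31e-07). Emilin1 ranged from 1.65 to 2.81 (median 2.45) at 7 days and from 0.62 to 1.48 (median 1.04) at 30 days and fell by 1.32 ± 0.16 (adjusted p = 6.30e-09), and Efemp2, a fibulin needed for elastic fibers, ranged from 3.09 to 3.92 (median 3.35) at 7 days and from 2.02 to 2.53 (median 2.30) at 30 days and fell by 1.09 ± 0.14 (adjusted p = 1.41e-08). These 3 were without overlap. Loxl4, a lysyl oxidase, fell by 1.58 ± 0.35 (adjusted p = 5.60e-04), and Mfap2, Mfap4, Plod2 and P4ha3 by between 0.76 and 1.34, with the call of P4ha3 lost in 9 of 27 alternatives. Eln, elastin itself, ranged from 0.48 to 2.86 (median 1.39) at 7 days and from 0.44 to 1.57 (median 0.77) at 30 days, a change of -0.50 ± 0.29 (adjusted p = 0.245). Fbln1, a fibulin of basement membranes and elastic fibers, rose by 0.97 ± 0.21 (adjusted p = 3.32e-04). Without BAM_30d replicate 7, 5 genes of the group fell.

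Matricellular proteins are made in wounds and regulate cells rather than bear load. Of 16 genes of the wound matrix 6 fell, 5 of them without overlap, and 1 rose. Beside Fbn2, Thbs2 ranged from 1.71 to 3.25 (median 2.71) at 7 days and from 0.73 to 1.27 (median 0.95) at 30 days and fell by 1.69 ± 0.21 (adjusted p = 6.17e-09), Ccn4, a target of Wnt signaling, ranged from -0.08 to 1.01 (median 0.56) at 7 days and from -1.58 to -0.82 (median -1.19) at 30 days and fell by 1.75 ± 0.19 (adjusted p = 2.37e-10), and Cthrc1, a secreted protein of activated fibroblasts, ranged from 2.05 to 3.06 (median 2.55) at 7 days and from 0.57 to 1.20 (median 0.88) at 30 days and fell by 1.67 ± 0.20 (adjusted p = 4.56e-09). Tgfbi and Thbs1 fell by 1.1 ± 0.18 (adjusted p = 3.95e-06) and 1.54 ± 0.43 (adjusted p = 0.0069), and the call of Thbs1 was lost in 12 of 27 alternatives. Ccn5, which opposes fibrosis and smooth muscle growth, ranged from -3.13 to -0.55 (median -1.97) at 7 days and from -0.91 to 1.09 (median 0.30) at 30 days and rose by 2.30 ± 0.36 (adjusted p = 2.18e-06). Postn, periostin, ranged from 0.51 to 3.86 (median 2.41) at 7 days and from 1.41 to 2.22 (median 1.95) at 30 days, a change of -0.66 ± 0.26 (adjusted p = 0.0719). Tnc, tenascin-C, changed by -0.83 ± 0.29 (adjusted p = 0.0352) and Fn1, fibronectin, by 0.39 ± 0.25 (adjusted p = 0.33). In the small leucine-rich proteoglycans Fmod, fibromodulin, ranged from 1.28 to 4.84 (median 3.69) at 7 days and from 0.69 to 1.55 (median 1.14) at 30 days and fell by 2.28 ± 0.40 (adjusted p = 1.34e-05), Lum, lumican, fell by 0.82 ± 0.18 (adjusted p = 5.05e-04), Omd, osteomodulin, ranged from -5.38 to -3.82 (median -4.47) at 7 days and from -3.03 to -1.94 (median -2.37) at 30 days and rose by 2.08 ± 0.29 (adjusted p = 1.57e-07), and Dcn, decorin, changed by -0.02 ± 0.14 (adjusted p = 0.957).

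Of 22 matrix proteases and their inhibitors 8 fell and 1 rose, with a median change of -0.98. Mmp14, the membrane protease that activates gelatinase A, ranged from 4.33 to 5.72 (median 5.37) at 7 days and from 3.76 to 4.66 (median 3.99) at 30 days and fell by 1.22 ± 0.16 (adjusted p = 2.37e-08). Mmp2, which is gelatinase A, ranged from 4.33 to 5.56 (median 5.06) at 7 days and from 3.69 to 4.30 (median 4.08) at 30 days and fell by 1.06 ± 0.16 (adjusted p = 6.16e-07). BAM_7d replicate 2 was the lowest array of its day for both. Mmp13, the main interstitial collagenase of rodents, ranged from 0.75 to 3.26 (median 1.80) at 7 days and from -2.85 to 1.00 (median -0.66) at 30 days and fell by 2.49 ± 0.66 (adjusted p = 0.00397), with 2 arrays of 30 days in the range of 7 days. Adamts4, an aggrecanase, fell by 2.30 ± 0.41 (adjusted p = 2.42e-05) and was above background on 2 of 8 arrays at 30 days, and Adamts12, Adamts15 and Mmp23 fell by between 1.26 and 1.76. Timp3, an inhibitor bound to the matrix, ranged from -3.80 to -2.77 (median -3.39) at 7 days and from -2.77 to -1.68 (median -2.30) at 30 days and rose by 1.16 ± 0.20 (adjusted p = 7.78e-06). Mmp9 and Mmp3 changed by -0.31 ± 0.53 (adjusted p = 0.779) and -0.02 ± 0.45 (adjusted p = 0.988), and the inhibitor Timp1 by -0.74 ± 0.24 (adjusted p = 0.0204).

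Of 14 plasminogen activation and coagulation genes above background 4 fell and 1 rose. Tfpi2, an inhibitor of serine proteases in the matrix, ranged from -3.12 to -1.32 (median -2.54) at 7 days and from -5.0 to -2.18 (median -4.37) at 30 days and fell by 1.81 ± 0.35 (adjusted p = 5.85e-05), and Plat, the tissue plasminogen activator of endothelium, ranged from 2.93 to 4.43 (median 3.64) at 7 days and from 2.37 to 3.08 (median 2.52) at 30 days and fell by 1.01 ± 0.20 (adjusted p = 1.04e-04). For both, BAM_30d replicate 1 was the highest array of its day. Procr and Serpinf1, the angiogenesis inhibitor PEDF, fell by 1.15 and 0.73, and the call of Serpinf1 was lost in 11 of 27 alternatives. F13a1, the subunit of factor XIII that crosslinks fibrin and is made by resident macrophages, ranged from -4.84 to -2.46 (median -3.91) at 7 days and from -3.04 to -1.1 (median -1.90) at 30 days and rose by 1.79 ± 0.31 (adjusted p = 1.06e-05).

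Endothelial genes were lower at 30 days in most cases. Of 28 on the array 25 passed the filter, 16 fell, none rose, and the median change was -0.82. For 11 genes of the group the 2 days did not overlap. Pecam1, the CD31 antigen of all endothelium, ranged from 2.53 to 3.39 (median 2.84) at 7 days and from 1.61 to 2.24 (median 1.91) at 30 days and fell by 0.92 ± 0.17 (adjusted p = 2.22e-05). Vwf, von Willebrand factor, ranged from 0.76 to 2.15 (median 1.29) at 7 days and from -0.02 to 0.51 (median 0.09) at 30 days and fell by 1.23 ± 0.17 (adjusted p = 7.70e-08). Kdr, the main receptor for VEGF, ranged from 2.57 to 3.78 (median 3.40) at 7 days and from 1.35 to 2.70 (median 2.16) at 30 days and fell by 1.35 ± 0.17 (adjusted p = 1.70e-08). The days were apart for Pecam1 and Vwf, and in Kdr BAM_7d replicate 2 and BAM_30d replicate 4 overlapped. Aplnr, the apelin receptor of sprouting and venous endothelium, ranged from -2.11 to -1.09 (median -1.64) at 7 days and from -4.01 to -3.06 (median -3.74) at 30 days and fell by 1.95 ± 0.20 (adjusted p = 9.34e-11) or 3.85-fold, and its ligand Apln ranged from -1.59 to 0.13 (median -0.75) at 7 days and from -2.76 to -1.62 (median -2.27) at 30 days and fell by 1.39 ± 0.36 (adjusted p = 0.00274). Sox18, a transcription factor of developing vessels, ranged from 0.39 to 1.40 (median 1.00) at 7 days and from -1.08 to -0.19 (median -0.86) at 30 days and fell by 1.70 ± 0.19 (adjusted p = 6.95e-10). Angpt2, the angiopoietin released by remodeling vessels, fell by 1.09 ± 0.22 (adjusted p = 1.76e-04). The days did not overlap for Aplnr, Apln or Sox18. Pdpn, which marks lymphatic endothelium and also activated fibroblasts, fell by 1.42 ± 0.17 (adjusted p = 6.17e-09), and Cdh5, Esam, Erg, Emcn, Eng, Plvap, Sele and Vegfc fell by between 0.66 and 1.30. Vegfa, the growth factor itself, and the receptor Flt1 did not pass the test (0.22 and -0.19). Without BAM_7d replicate 7, 15 genes of the group fell, and without BAM_7d replicate 2, 16 fell and 1 rose.

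The transcription factors of the response to low oxygen fell as well. Epas1, which is HIF-2α and abundant in endothelium, ranged from -0.87 to 0.40 (median -0.29) at 7 days and from -2.18 to -1.51 (median -1.96) at 30 days and fell by 1.60 ± 0.20 (adjusted p = 1.18e-08). Hif1a ranged from -2.47 to -1.23 (median -2.06) at 7 days and from -3.95 to -3.28 (median -3.37) at 30 days and fell by 1.45 ± 0.26 (adjusted p = 2.93e-05). Both were without overlap, and BAM_7d replicate 7 was the highest array for both. Their targets gave no other fall among the 24 genes of the group, all above background. Slc2a1, the glucose transporter, and Ldha changed by 0.19 ± 0.21 (adjusted p = 0.638) and 0.09 ± 0.10 (adjusted p = 0.604), the latter with 7 arrays saturated, and Ndrg1 and Bnip3 rose by 0.90 ± 0.23 (adjusted p = 0.0032) and 0.86 ± 0.18 (adjusted p = 3.55e-04).

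Most cell cycle genes had a lower mean at 30 days, and 4 passed the test. The mean was lower in 39 of 40 genes on the array, the median change was -0.59, and 11 genes had no overlap. Of 38 above background 4 (10.5%) fell by both thresholds. Over all named genes above background 6.53% fell and 8.62% had no overlap. Cdk1, the kinase that drives mitosis, ranged from 1.01 to 2.69 (median 1.36) at 7 days and from 0.04 to 0.56 (median 0.43) at 30 days and fell by 1.1 ± 0.32 (adjusted p = 0.00769), a call lost in 13 of 27 alternatives. Cenpa, the histone of centromeres, ranged from -4.41 to -2.99 (median -3.90) at 7 days and from -5.67 to -4.51 (median -5.13) at 30 days and fell by 1.29 ± 0.33 (adjusted p = 0.00257). Cdc20 and Foxm1 fell by 0.59 and 0.60, calls lost in 7 of 27 and 16 of 27 alternatives. Mki67, which encodes the Ki-67 antigen, ranged from 0.57 to 2.05 (median 0.99) at 7 days and from 0.19 to 0.88 (median 0.69) at 30 days, a change of -0.44 ± 0.28 (adjusted p = 0.313). BAM_7d replicate 2 had the highest group level, -0.24, against -1.71 to -1.15 for the other rats of 7 days. The count of falls was 1 without this array, with a median of -0.43, and 2 without BAM_7d replicate 7. It was 2 after quantile normalization and 11 after normexp correction. Tfrc, which brings iron into growing cells, ranged from 1.20 to 2.26 (median 1.60) at 7 days and from -0.87 to 0.18 (median -0.48) at 30 days and fell by 2.07 ± 0.26 (adjusted p = 1.29e-08) with no overlap. In the respiratory chain, Sdhc and the nuclear receptor Esrra rose by 0.69 ± 0.12 (adjusted p = 2.37e-05) and 0.70 ± 0.09 (adjusted p = 2.91e-08), both without overlap, and the median of 27 genes was 0.10. Of 21 cholesterol synthesis genes above background 1 rose and 1 fell (none fell without BAM_7d replicate 2) with a median change of -0.15, and Sqle, the squalene epoxidase, changed by 0.00 ± 0.27 (adjusted p = 1).

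Hedgehog signaling links the urothelium, which makes the ligands, to the stroma, which carries the receptor Ptch1 and the effector Gli1. The ligands diverged (the plot of signaling genes). Ihh, Indian hedgehog, ranged from -7.80 to -3.25 (median -5.63) at 7 days and from -3.34 to -0.30 (median -0.90) at 30 days and rose by 4.45 ± 0.56 (adjusted p = 1.45e-08), with 5 of 8 arrays above background at 7 days and all 8 at 30 days. Its second, dimmer probe changed by 0.36, so the size of this rise depends on the probe, and on the brighter one it was 2.37 after normexp correction. Dhh, Desert hedgehog, which Schwann cells and endothelium make, ranged from -3.59 to -2.49 (median -3.34) at 7 days and from -5.85 to -4.59 (median -4.96) at 30 days and fell by 1.80 ± 0.30 (adjusted p = 6.25e-06) with no overlap, and its second probe fell by 0.87. Shh, the main ligand of the bladder epithelium, was above background on 5 arrays of 7 days and 6 of 30 days and changed by 0.29 ± 0.32 (adjusted p = 0.623). Ptch1, both receptor and target of the pathway, ranged from -5.68 to -2.76 (median -5.08) at 7 days and from -3.80 to -2.50 (median -3.17) at 30 days and rose by 1.53 ± 0.31 (adjusted p = 1.48e-04), a value of 0.55 after that correction. Gli1 ranged from -4.23 to -2.68 (median -3.82) at 7 days and from -3.20 to -2.38 (median -3.01) at 30 days, a change of 0.78 ± 0.24 (adjusted p = 0.0156) that missed the threshold. Of 15 genes of the group on the array 11 passed the filter, 2 rose and 1 fell, and after normexp correction 1 rose and 1 fell.

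Of 20 BMP genes above background 10 rose and 1 fell, beside 6.21% and 6.53% of all named genes, and the median change was 0.69. Among the ligands, Bmp2 ranged from -2.67 to -0.83 (median -1.68) at 7 days and from -0.74 to 0.05 (median -0.33) at 30 days and rose by 1.37 ± 0.25 (adjusted p = 2.27e-05) with no overlap. Bmp5 ranged from -7.33 to -4.15 (median -5.36) at 7 days and from -3.95 to -3.12 (median -3.60) at 30 days and rose by 1.95 ± 0.29 (adjusted p = 4.14e-07), again with no overlap, although 3 arrays of 7 days were not above background and the change was 0.55 after normexp correction. Bmp7 ranged from -3.21 to 0.24 (median -1.06) at 7 days and from -0.93 to 0.51 (median 0.16) at 30 days and rose by 1.20 ± 0.31 (adjusted p = 0.00261), and Bmp3 rose by 1.16 ± 0.34 (adjusted p = 0.00864), a call lost in 14 of 27 alternatives. Bmp4 changed by 0.69 ± 0.23 (adjusted p = 0.0235). The Id genes are direct targets of BMP receptors. Id3 ranged from -3.37 to -2.57 (median -3.02) at 7 days and from -1.94 to -1.06 (median -1.85) at 30 days and rose by 1.34 ± 0.18 (adjusted p = 6.49e-08), Id1 ranged from 0.15 to 1.22 (median 0.96) at 7 days and from 1.14 to 2.59 (median 1.87) at 30 days and rose by 1.02 ± 0.22 (adjusted p = 3.43e-04), and Id4 rose by 0.83 ± 0.23 (adjusted p = 0.00627), lost in 10 of 27 alternatives. Inhibitors of the pathway went both ways. Chrdl1, a chordin-like antagonist, ranged from -5.0 to -3.38 (median -4.14) at 7 days and from -3.40 to -2.11 (median -2.68) at 30 days and rose by 1.49 ± 0.33 (adjusted p = 4.43e-04), the pseudoreceptor Bambi rose by 0.89 (a call lost in 8 of 27 alternatives), while Chrdl2 ranged from -4.95 to 0.72 (median -3.71) at 7 days and from -6.02 to -4.59 (median -5.18) at 30 days and fell by 2.02 ± 0.51 (adjusted p = 0.00231). Grem1 changed by -0.57 ± 0.59 (adjusted p = 0.594). Without BAM_7d replicate 7, 5 genes of the group rose and 1 fell, without BAM_30d replicate 7, 7 rose and 1 fell, and without BAM_7d replicate 2, 11 rose and none fell. Chrdl2 had its highest signal, 0.72, on that array. After normexp correction 6 rose, and Chrdl1 changed by 0.73 and lost its call.

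**Figure D4:**
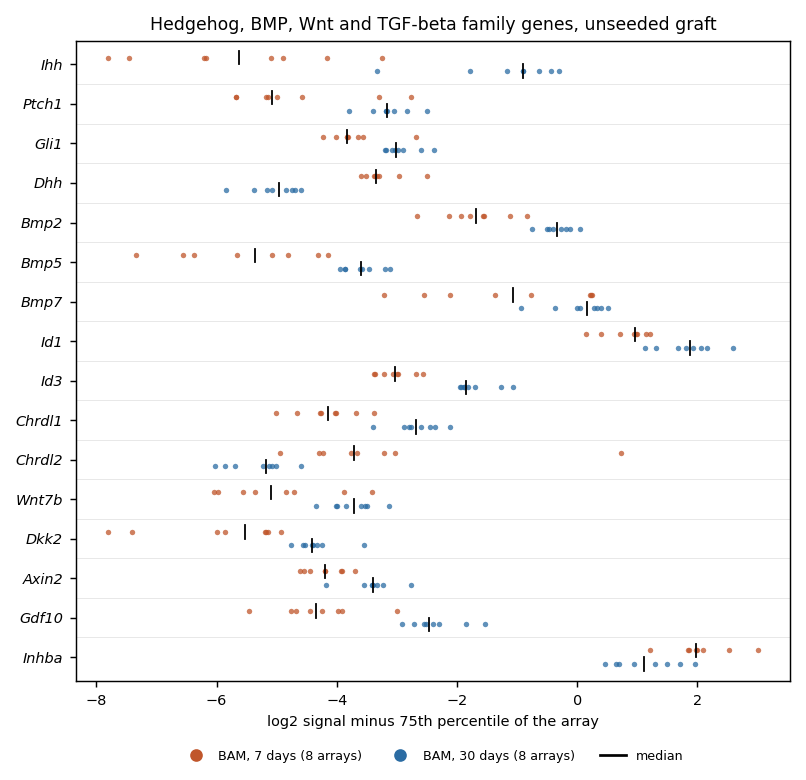
Signal (log2 minus the 75th percentile of the array, horizontal axis) of 16 genes of the hedgehog, BMP, Wnt and TGF-β families on each array of 7 days (orange) and 30 days (blue), with black bars at the median of 8 arrays. Bmp2, Bmp5, Id3, Dkk2 and Gdf10 are higher on all 8 arrays of 30 days than on any of 7 days, and Dhh is lower on all of them.

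In the Wnt family 6 of 20 genes above background rose and none fell, with a median change of 0.16. Wnt7b, a ligand of epithelium, ranged from -6.03 to -3.42 (median -5.10) at 7 days and from -4.35 to -3.13 (median -3.72) at 30 days and rose by 1.23 ± 0.32 (adjusted p = 0.00288). Dkk2, a secreted modulator of the Wnt coreceptor, ranged from -7.80 to -4.92 (median -5.53) at 7 days and from -4.76 to -3.54 (median -4.41) at 30 days and rose by 1.59 ± 0.28 (adjusted p = 1.98e-05) with no overlap. Axin2, a general target of the pathway, ranged from -4.62 to -3.69 (median -4.19) at 7 days and from -4.18 to -2.77 (median -3.40) at 30 days and rose by 0.78 ± 0.21 (adjusted p = 0.00437). Nkd1, Nkd2 and Sfrp5, which restrain the pathway, rose by between 0.79 and 0.89, and the call of Nkd2 was lost in 14 of 27 alternatives. Wnt5a and Wnt4 changed by -0.38 ± 0.22 (adjusted p = 0.255) and -0.57 ± 0.26 (adjusted p = 0.121). After normexp correction Dkk2, Wnt7b and Axin2 changed by 0.25, 0.32 and 0.27 and 1 gene of this family rose, and without BAM_7d replicates 7 and 2, each left out alone, 4 and 3 did. In the TGF-β and activin family Gdf10 ranged from -5.46 to -3.00 (median -4.35) at 7 days and from -2.92 to -1.53 (median -2.46) at 30 days and rose by 1.96 ± 0.40 (adjusted p = 1.49e-04), Inhba, the activin A subunit, ranged from 1.21 to 3.01 (median 1.99) at 7 days and from 0.47 to 1.95 (median 1.12) at 30 days and fell by 0.91 ± 0.20 (adjusted p = 4.23e-04), and Tgfb1 and its receptor Tgfbr2 changed by 0.34 ± 0.19 (adjusted p = 0.25) and 0.34 ± 0.16 (adjusted p = 0.134). Inhbb rose by 0.59 on its brighter probe, a call lost in 8 of 27 alternatives, and fell by 1.84 on the other. After normexp correction Gdf10 changed by 0.95 and lost its call.

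Growth factors changed singly, with 3 rises and 3 falls among 27 genes above background. Igf1 ranged from 5.28 to 5.89 (median 5.40) at 7 days and from 4.18 to 5.10 (median 4.66) at 30 days and fell by 0.88 ± 0.18 (adjusted p = 1.32e-04) with no overlap and 4 arrays of 7 days saturated, so the fall may be understated. Igfbp6, which binds IGF-2, ranged from -0.78 to 0.89 (median 0.56) at 7 days and from 1.38 to 2.37 (median 2.17) at 30 days and rose by 1.64 ± 0.25 (adjusted p = 7.69e-07) with no overlap, and Igfbp2 rose by 1.08 ± 0.28 (adjusted p = 0.00271). The PDGF receptors of fibroblasts and pericytes fell. Pdgfra ranged from 1.47 to 2.81 (median 1.88) at 7 days and from 0.90 to 1.34 (median 1.08) at 30 days and fell by 0.84 ± 0.13 (adjusted p = 1.97e-06) with no overlap, and Pdgfrb ranged from 0.84 to 2.24 (median 1.73) at 7 days and from 0.37 to 1.07 (median 0.58) at 30 days and fell by 0.97 ± 0.19 (adjusted p = 8.69e-05). Erbb2, a receptor of urothelium, rose by 0.97 ± 0.23 (adjusted p = 0.00136). Hgf and Fgf7, growth factors from stroma to epithelium, changed by -0.19 ± 0.23 (adjusted p = 0.661) and -0.73 ± 0.28 (adjusted p = 0.057).

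In the adipocyte group 3 of 13 genes above background rose and 1 fell, and those that moved are not confined to fat cells. Pparg, a nuclear receptor that urothelium also uses to differentiate, ranged from 0.36 to 2.08 (median 0.99) at 7 days and from 1.95 to 2.74 (median 2.41) at 30 days and rose by 1.26 ± 0.26 (adjusted p = 2.44e-04). Cidea, a lipid droplet protein, ranged from -1.82 to -0.91 (median -1.23) at 7 days and from -0.36 to 1.22 (median 0.87) at 30 days and rose by 1.90 ± 0.31 (adjusted p = 3.52e-06) with no overlap, and Lpl, lipoprotein lipase, rose by 1.23 ± 0.31 (adjusted p = 0.002). Dgat2 fell by 0.97 ± 0.20 (adjusted p = 2.55e-04). Adipoq, adiponectin, ranged from -3.13 to 1.38 (median -0.25) at 7 days and from -6.52 to 2.23 (median 0.79) at 30 days, a change of -0.01 ± 1.03 (adjusted p = 0.997), and Fabp4 changed by 0.34 ± 0.25 (adjusted p = 0.409). Immediate early genes, which respond within minutes to injury and to handling of tissue, included 5 rises and 3 falls among 26 genes. Atf3 ranged from -0.43 to 2.07 (median 1.26) at 7 days and from 2.17 to 4.47 (median 3.67) at 30 days and rose by 2.41 ± 0.41 (adjusted p = 7.05e-06) with no overlap. Klf6, Klf4, Jund and Zfp36 rose by between 0.67 and 1.39, and Fosb, Fosl2 and Gadd45b fell by between 0.59 and 1.00, with the call of Gadd45b lost in 6 of 27 alternatives. Fos and Egr1 spread widely among rats of the same day and changed by 0.40 ± 0.47 (adjusted p = 0.657) and 1.01 ± 0.41 (adjusted p = 0.0724).

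The change from 7 to 30 days was then set against that of bladders reconstructed using BAM seeded with ASCs, with 8 arrays at each day and none shared with the unseeded graft. In the seeded graft 825 of the 11687 genes (7.06%) changed, 543 upwards and 282 downwards. The filter on dim probes used the unseeded arrays alone, also for the seeded graft and for the difference between the grafts. Genes above background only in the seeded graft are thus left out, so counts of the 2 grafts are not on an equal footing. Of the 1489 genes changed without seeded cells, 335 (22.5%) had also changed with them in the same direction, and these were 40.6% of the 825. Such counts do not show that changes differ, which was tested directly as a contrast of the 2 changes. By limma, 251 of 20951 probes (1.2%) and 116 of 11687 genes (0.993%) differed in this test, where 4847 probes had an unadjusted p below 0.05. In 101 of the genes the unseeded graft had the larger fall or smaller rise, and in 15 the larger rise or smaller fall. The count moved with single arrays. On the seeded side, 95.6% and 86.2% of spots were above background on BAM_ADSCs_30d replicates 1 and 2, against 73.8% to 77.9% on the other 14 seeded arrays. The count of probes was 64 without both of these and 146 without replicate 1, 88 without BAM_7d replicate 7 and 102 without BAM_7d replicate 6.

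**Figure D5:**
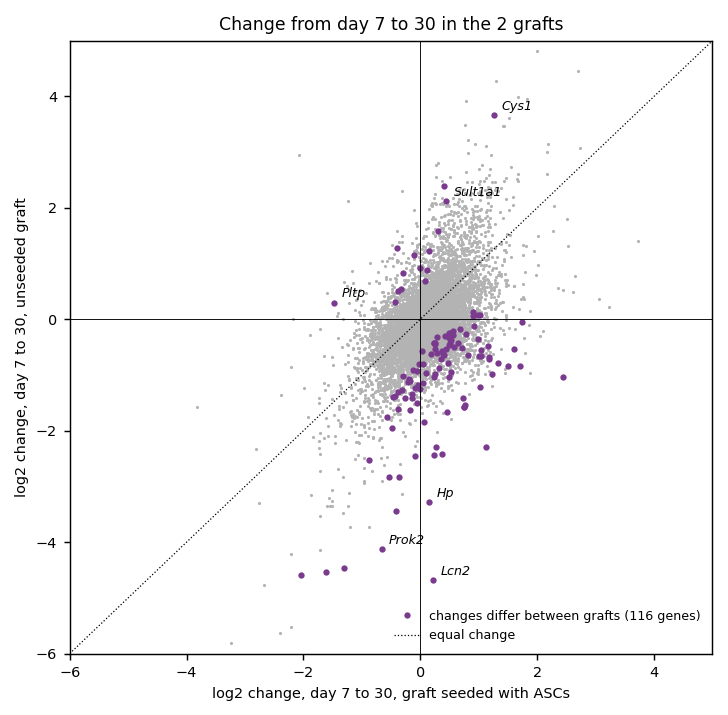
Log2 change from 7 to 30 days of the 11687 named genes above background in the unseeded graft (vertical axis) against that in the graft seeded with ASCs (horizontal axis), with 1 point per gene. Purple points are the 116 genes whose changes differ between the grafts and the dotted line marks equal change; most of them, 101, lie under the line, with Lcn2 and Hp at -4.68 and -3.28 without seeded cells and near 0 with them.

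The acute phase genes Hp and Lcn2 had the larger fall without seeded cells. Hp averaged -1.87 ± 1.45 (SD) at 7 days and -1.72 ± 0.72 at 30 days in the seeded graft, a change of 0.15 (adjusted p = 0.836), so the difference between the grafts was -3.43 ± 0.71 (adjusted p = 0.00338). Lcn2 averaged -2.14 ± 2.10 (SD) at 7 days and -1.92 ± 2.19 at 30 days there, a change of 0.22 (adjusted p = 0.843) against the fall given for BAM alone, a difference of -4.90 ± 1.09 (adjusted p = 0.00562). The means of the unseeded graft were 1.35 ± 1.05 (SD) at 7 days and -1.93 ± 0.49 at 30 days for Hp, and 2.32 ± 1.88 (SD) at 7 days and -2.36 ± 1.5 at 30 days for Lcn2. Without the 2 seeded arrays that stood apart the difference was -3.27 for Hp and -4.59 for Lcn2, with adjusted p-values of 0.0146 and 0.0248. Fmod averaged 1.80 ± 0.79 (SD) at 7 days and 2.08 ± 0.64 at 30 days in the seeded graft and differed by -2.56 ± 0.56 (adjusted p = 0.00545). Matrix and endothelial genes were among the larger falls without seeded cells as well. Fbn2 fell in both grafts, by 2.03 in the seeded one, and the difference was -2.56 ± 0.48 (adjusted p = 0.00134). Col4a1 differed by -1.19 ± 0.26 (adjusted p = 0.00562) and Loxl4 by -2.33 ± 0.50 (adjusted p = 0.00457). Vwf, Plvap and Epas1 differed by -1.15 ± 0.24 (adjusted p = 0.00332), -0.85 ± 0.18 (adjusted p = 0.0046) and -1.23 ± 0.28 (adjusted p = 0.00792).

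In the other direction, Sult1a1, a phenol sulfotransferase, ranged from -2.50 to -1.20 (median -1.95) at 7 days and from -0.74 to 0.81 (median 0.23) at 30 days without seeded cells and rose by 2.12 ± 0.27 (adjusted p = 1.18e-08). It averaged -1.06 ± 0.49 (SD) at 7 days and -0.62 ± 0.67 at 30 days with them, and the difference of the changes was 1.67 ± 0.38 (adjusted p = 0.00635). Cys1, a protein of primary cilia, was above background on 5 of 8 arrays at 7 days, rose by 3.66 ± 0.32 (adjusted p = 4.71e-13) and differed by 2.39 ± 0.45 (adjusted p = 0.0014). Pltp, the phospholipid transfer protein, changed by 0.30 ± 0.27 (adjusted p = 0.532) without seeded cells and by -1.47 (adjusted p = 4.88e-05) with them, a difference of 1.77 ± 0.38 (adjusted p = 0.00508). Without the 2 seeded arrays that stood apart, 3 of the 12 genes given a difference here (Fbn2, Sult1a1 and Cys1) still passed the test, and the other 9 had the same direction with adjusted p-values of 0.0137 to 0.0398. Over the 27 alternatives the difference lost its call in 15 for Epas1, 9 for Sult1a1, 8 for Lcn2 and 6 for Fmod, and in 0 to 5 for the other 8 genes. The differences of Prok2 and Tas1r3 have no exact size, since their probes were not above background on any array of BAM_30d and of the seeded graft at 7 days, respectively.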

How the data were processed

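Total RNA with an RIN above 7.0 was labeled with Cy3 and hybridized to 1-color SurePrint G3 Rat GE 8x60K arrays. The deposited intensity values are the output of Agilent Feature Extraction 12.0.1.1, named in the submitters' processing notes, and the processed signals, already background-subtracted by that software, were used. The authors also deposited a series matrix of linear intensity values, which equal the scanner values on the 16 arrays compared, are scaled otherwise on 3 arrays of the seeded graft at 7 days and hold 24873 empty spots on 1 array of another group. It served as an alternative.

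Control spots and spots flagged as outliers were left out, log2 signals were set against the 75th percentile of each array, and spots of a probe were averaged. All 30367 gene probes were fitted with limma 3.58.1 (R 4.3.3) as group means over all 64 arrays. P-values were adjusted by Benjamini-Hochberg over all probes, and a change had to exceed 1.5-fold with an adjusted p under 0.01. Counts, those of the seeded graft included, cover probes well above background on all 8 unseeded arrays of at least 1 day. Each array is 1 rat. The code was tested on simulated data.

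RefSeq (GRCr8) named 18758 probes for 15715 genes. The brightest probe stood for a gene. Values were given for the 12 largest rises and falls, the 4 largest bounds, the first 3 genes and the 3 largest called changes of each of 39 gene lists, and the 4 largest differences between grafts each way. Beyond this rule, 47 of the 199 genes given values, and genes given as ranges, were named after their values were seen. Some genes that the rule names are not reported here. Members and lists were chosen with earlier results of these data known. The alternatives were the background correction, normalization, filter, adjustment, threshold, arrays in the fit, unmoderated variance and leaving out arrays.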

Additional observations from a re-analysis of the deposited data

Results flagged for a closer look

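Dixon's test was used to find single arrays that stood far from the other 7 of their day. Such arrays were found in 41 of 398 groups of 8 arrays (199 genes at 2 days), or 10.3%. The same rats were measured for every gene, so these groups are not independent, and many of the genes were chosen for large changes. The share can therefore not be set against a chance rate of about 1 in 20, and no excess over chance was established. The values are log2 signals minus the 75th percentile of the array, each given with the range of the other 7 arrays. BAM_7d replicate 2 accounted for 18 of the 41. It was the highest for Cdc20 (0.17 against -1.15 to -0.68), Cdk1 (2.69 against 1.01 to 1.73), Chrdl2 (0.72 against -4.95 to -3.04), Cxcl1 (4.33 against 0.67 to 2.35), Foxm1 (-0.80 against -2.07 to -1.55), Kcnj8 (3.25 against 1.80 to 2.44), Mki67 (2.05 against 0.57 to 1.27), Pdgfra (2.81 against 1.47 to 2.04), Pdpn (4.70 against 3.26 to 3.75), Procr (-0.73 against -2.01 to -1.73) and Tnc (2.38 against -1.23 to -0.02). It was the lowest for Cd4 (-3.54 against -2.26 to -1.66), Cd68 (2.69 against 3.97 to 4.73), Cd83 (-1.28 against 0.54 to 1.30), Col11a1 (-3.25 against -0.13 to 1.17), Ltf (-8.55 against -6.68 to -4.99), Ncam1 (-1.38 against 0.35 to 1.56) and Wnt4 (-1.07 against -0.39 to 0.20).

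BAM_30d replicate 7 accounted for 13. It was the highest for Csf3r (-2.44 against -4.29 to -3.68), Cxcr2 (-2.55 against -5.01 to -4.22), Fetub (-6.34 against -8.52 to -7.52), Il1r2 (0.36 against -3.08 to -1.63), Irf4 (-1.61 against -4.39 to -3.64), Lcn2 (1.11 against -3.47 to -1.90), Nos2 (-1.78 against -4.59 to -4.07), Prok2 (-5.60 against -8.35 to -7.55), S100a8 (0.73 against -2.57 to -1.28), S100a9 (1.33 against -1.96 to -0.58) and Vwf (0.51 against -0.02 to 0.19), and the lowest for Ccn5 (-0.91 against 0.15 to 1.09) and Tgfbr2 (-1.51 against -1.06 to -0.66). BAM_30d replicate 1 accounted for 7, as the highest for Adamts4 (-3.56 against -7.55 to -5.81), Cxcl1 (1.07 against -2.03 to -0.72), Plat (3.08 against 2.37 to 2.71), Procr (-0.81 against -3.51 to -2.80), Ptx3 (0.61 against -2.94 to -1.77), Tfpi2 (-2.18 against -5.0 to -4.08) and Thbs1 (-2.25 against -6.91 to -4.93). BAM_30d replicate 8 was the highest for Dkk2 (-3.54 against -4.76 to -4.25). BAM_7d replicate 8 was the highest for Gli1 (-2.68 against -4.23 to -3.57). BAM_7d replicate 7 was the highest for Ppbp (-3.99 against -5.56 to -4.96). Of the arrays as a whole, 86.1% of gene spots were well above background on BAM_7d replicate 7, against 74.6% to 79.8% on the others of its day, and the 75th percentile of BAM_30d replicate 7 was 9.97 on the log2 scale, against 10.37 to 10.64. What sets these arrays apart was not tested.

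The change from 7 to 30 days differed between the unseeded graft and the graft seeded with ASCs for 251 probes, by limma's test of the contrast of the 2 changes. Among the genes given values, the log2 change without seeded cells minus that with them was negative for 13, -4.90 for Lcn2, -3.47 for Prok2, -3.43 for Hp, -3.16 for Fetub, -3.02 for Hal, -2.56 for Fbn2, -2.56 for Fmod, -2.33 for Loxl4, -1.23 for Epas1, -1.19 for Col4a1, -1.16 for Pdpn, -1.15 for Vwf and -0.85 for Plvap. It was positive for 3, 1.67 for Sult1a1, 1.77 for Pltp and 2.39 for Cys1. Prok2, Fetub and Hal were not above background on any array of BAM_30d, so these values depend on the dim signal there and are no exact sizes.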

How the results depend on the processing

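No changed gene given values changed sign in any of the 27 alternatives, while some that had not passed the test, such as Shh and Adipoq, lay on both sides of 0. Of 155 changed genes given values, 101 stayed changed in all 27, 36 lost the call in 1 to 5 and 18 in 6 or more. Normexp background correction left 767 rises beside 1170 falls, and fitting the compared groups alone gave 1184 and 1395, so falls outnumbered rises. Of the 2579 probes changed in the fit of the compared groups alone, 2024 were among the 2409. A fold change over 2 left 1263 changed probes, 686 higher and 577 lower. Leaving out 1 of the 16 arrays at a time gave 2059 to 2599 changed probes, 1053 to 1366 higher and 991 to 1233 lower.

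The test of the difference between the grafts was less stable than the comparison of the days. Its 251 probes became 147 with normexp, 113 with quantile normalization, 163 with the percentile over detected probes, 148 with the series matrix values, 1648 with an unadjusted p, 162 with a fold over 2 and 88 to 342 with 1 array left out. The lowest counts came without BAM_7d replicates 7 (88) and 6 (102), and without BAM_30d replicates 1 to 4 they were 161, 158, 143 and 142. Leaving out BAM_ADSCs_30d replicate 1 gave 146, and leaving out replicates 1 and 2 gave 64. These, and group counts without BAM_7d replicate 2 or BAM_30d replicate 7, were chosen after seeing the data. The cause was not tested.

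A replicate block gave 2370 changed probes and 250 for the difference between the grafts. Samples with the same number did not deviate together (r from -0.24 to 0.20, and no array correlated best with its own number), so the numbers are no pairing.

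The number of arrays, 8 a group, limits the precision. Saturated probes hide changes of the most abundant transcripts, dim probes give bounds only, and each group lies on 1 slide.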
